A study of Mus musculus with 6 samples.

Results

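Motile cilia are hair-like projections that beat to move fluid, and in the brain they stand mainly on ependymal cells, the epithelium that lines the ventricles. In the deposited hippocampal data, genes of the motile cilium were taken by gene symbol. The choice covered axonemal dyneins (Dnah, Dnai and Dnali1), radial spoke head proteins (Rsph), tektins (Tekt), sperm-associated antigens of the central apparatus (Spag6, Spag16, Spag17), cilia and flagella associated proteins (Cfap), the regulators Foxj1, Rfx3 and Mcidas, and Hydin, Ak7, Stk33 and Tppp3. Of 45037 probe sets tested for 18193 named genes, 88 probe sets of 57 genes were members. Mcidas, Dnai1 and Dnai2 had no probe set with a single gene symbol and are not described.

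The study compared mice heterozygous for a p300 deficiency (p300+/-) with their wild-type littermates, in a study of physical traits and mild cognitive impairment. Ep300 encodes p300, an enzyme that acetylates histone lysines and serves many transcription factors as a coactivator. Each array held pooled hippocampal RNA of 4 females aged 3 months on a C57BL/6 background, and 3 arrays were made of p300+/- and 3 of wild-type pools, from 12 animals of each genotype. The labels name no tissue-specific driver for the deficiency. Because animals were pooled, the spread between arrays is that between pools and not between animals.

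The beating core of a motile cilium, the axoneme, is a ring of doublet microtubules around a central pair. Outer and inner dynein arms on the doublets drive the bending, radial spokes and the central apparatus coordinate the arms, and tektins lie inside the doublet wall. Foxj1 is the transcription factor that switches on much of the motile cilium programme in ependymal and other multiciliated cells, and factors of the RFX family, Rfx3 among them, act with it. A dissected hippocampus can carry ventricle lining and choroid plexus, an epithelium that secretes cerebrospinal fluid and also bears cilia. In bulk RNA, a lower value can mean fewer cells of a type or less RNA per cell, and these cannot be told apart.

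Promoter sequences of the members were examined because members were high together in 1 of the p300+/- arrays, as described further on. RefSeq (GRCm38.p6) gave a window of 250 bases before to 50 after the transcription start for 46 of the 57 genes. The windows were searched on both strands for GTTGCC, a core of the X-box bound by RFX factors, and for TGTTTAC, a forkhead motif; the letters of these motifs cannot overlap. The X-box core was present for 14 of the 46 genes (30.4%), against 14.1% of 27025 genes with a window. The forkhead motif was present for 5 (10.9%), against 4.05% of all genes. Of the 18 genes more than 0.3 above every other array in the third p300+/- array, 12 had a window, as did 34 of the 39 others. Among these 12, 6 (50%) held the X-box core and 0 the forkhead motif. Among the 34 others, 8 (23.5%) held the X-box core and 5 (14.7%) the forkhead motif. The split was made on the same array values, and the difference in shares was not tested. A match of letters is a description of the sequence and not a site of binding. The windows printed here belong to 4 of the genes that were high in that array, with 3, 2, 1 and 0 X-box cores in capitals on either strand (GGCAAC is its reverse complement). They are Cfap161 at chr7:83794790-83795089, 1 of the windows listed for Tekt1 at chr11:72361833-72362132, Dnah7a at chr1:53706735-53707034 and Dnali1 at chr4:125065608-125065907, all on the minus strand and written 5′ to 3′.
Cfap161: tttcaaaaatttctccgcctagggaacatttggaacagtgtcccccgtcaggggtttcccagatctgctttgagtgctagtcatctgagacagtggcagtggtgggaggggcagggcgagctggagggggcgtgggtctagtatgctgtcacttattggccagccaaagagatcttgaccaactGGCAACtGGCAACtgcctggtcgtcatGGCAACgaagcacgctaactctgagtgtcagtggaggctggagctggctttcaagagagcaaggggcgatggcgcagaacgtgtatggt
Tekt1: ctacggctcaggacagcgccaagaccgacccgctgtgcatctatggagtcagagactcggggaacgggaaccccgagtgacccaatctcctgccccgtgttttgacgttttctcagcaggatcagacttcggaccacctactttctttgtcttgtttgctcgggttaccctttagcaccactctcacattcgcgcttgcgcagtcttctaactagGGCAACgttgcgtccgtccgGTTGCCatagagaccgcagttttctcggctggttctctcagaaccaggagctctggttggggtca
Dnah7a: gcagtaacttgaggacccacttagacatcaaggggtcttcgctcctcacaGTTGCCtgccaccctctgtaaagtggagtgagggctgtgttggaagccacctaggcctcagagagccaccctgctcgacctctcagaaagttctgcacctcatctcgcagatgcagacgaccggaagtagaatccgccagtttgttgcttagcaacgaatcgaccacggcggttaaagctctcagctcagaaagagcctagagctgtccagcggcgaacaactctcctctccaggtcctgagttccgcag
Dnali1: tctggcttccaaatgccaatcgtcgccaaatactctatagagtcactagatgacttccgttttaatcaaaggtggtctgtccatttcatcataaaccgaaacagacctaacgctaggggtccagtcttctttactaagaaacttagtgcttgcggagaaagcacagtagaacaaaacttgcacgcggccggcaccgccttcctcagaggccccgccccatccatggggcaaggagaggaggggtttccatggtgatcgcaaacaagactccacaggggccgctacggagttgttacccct

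Every deposited value was taken as a log2 difference from that probe set's own median over the 6 arrays. Differences between arrays were thus kept, and levels of different genes cannot be set against each other. The arrays p300+/- 3 and wild-type 2 stood apart from the rest. The SD of the values over probe sets was 0.29 in p300+/- 3, 0.20 and 0.21 in p300+/- 1 and 2, 0.33 in wild-type 2, and 0.18 and 0.20 in wild-type 1 and 3. Over all probe sets, p300+/- 3 and wild-type 2 correlated at r = 0.55 and p300+/- 1 and wild-type 1 at r = 0.45, while the other pairs of arrays lay between −0.42 and 0.11. These are descriptions across probe sets, and centring each probe set over the 6 arrays pulls such correlations below 0. For Ep300 the values were −0.26, −0.22 and −0.50 in p300+/- 1 to 3, against 0.22, 0.38 and 0.40 in wild-type 1 to 3, and the log2 fold change was −0.66 ± 0.13 (SE). Ep300 was lower in all p300+/- arrays than in all wild-type arrays, and no label says whether its probe set lies in the altered part of the gene.

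No motile cilia probe set passed the test between genotypes, and the members were slightly higher in p300+/- arrays as a group. With limma and Benjamini-Hochberg adjustment over all 45037 probe sets, 0 of 88 members had an adjusted p under 0.05, as did 0% of all probe sets, and the smallest adjusted p of a member was 0.9999. At an unadjusted p under 0.05, 5 members were higher in p300+/- arrays, against 0.77% of all probe sets, and 0 were lower, against 0.451%. Some genes count with several probe sets, and by the first probe set of each of the 57 genes 3 were higher and 0 lower. The log2 fold change was above 0 for 67 members (76.1%) and below 0 for 21, against 51.7% above 0 over all probe sets. The median log2 fold change was 0.098, against 0.0057 over all probe sets, and members ran from −0.23 to 0.71. In 9 members all p300+/- arrays lay above all wild-type arrays, against 3.19% of all probe sets, and in 1 member they lay below, against 2.2%. By first probe sets these counts were 7 and 1 of 57 genes. An exact permutation test of 3 arrays against 3 cannot give a p below 0.1.

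The highest values of many members lay in a single array, p300+/- 3. Members had medians of 0.010, −0.0065 and 0.10 in p300+/- 1 to 3, against −0.052, 0.0095 and −0.071 in wild-type 1 to 3. p300+/- 3 held the highest of the 6 values for 37 of 88 members, against 21.3% of all probe sets. It lay more than 0.3 above every other array for 20 members (22.7%) of 18 genes, against 2.36% of all probe sets. Of those just inside and just outside this gap, Dnali1 (1436126_at) was 0.31 above the next array and Cfap20 (1452896_at) 0.21. Without p300+/- 3, 54 members were higher and 34 lower in p300+/- arrays, the median log2 fold change was 0.043, and 2 members had an unadjusted p under 0.05. Without wild-type 3 the counts were also 54 higher and 34 lower, with a median of 0.072, so the smaller count was not particular to p300+/- 3.

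Wild-type 2 was not low for the motile cilia genes. It held the lowest value for 14 of 88 members (15.9%), against 18.4% of all probe sets, and wild-type 1 and 3 held it for 19 and 24. It was more than 0.3 below every other array for 4 members, against 4.38% of all probe sets. These 4 were Rsph4a, Cfap69, Cfap126 and Cfap97, the third named after its values were seen. Wild-type 2 was the highest array for 21 members (23.9%), against 27.1% of all probe sets, and for 24 members (27.3%) p300+/- 3 and wild-type 2 were the highest pair, against 21.3% of all probe sets. Without wild-type 2, 73 members were higher and 15 lower in p300+/- arrays and the median was 0.14.

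**Figure D1:**
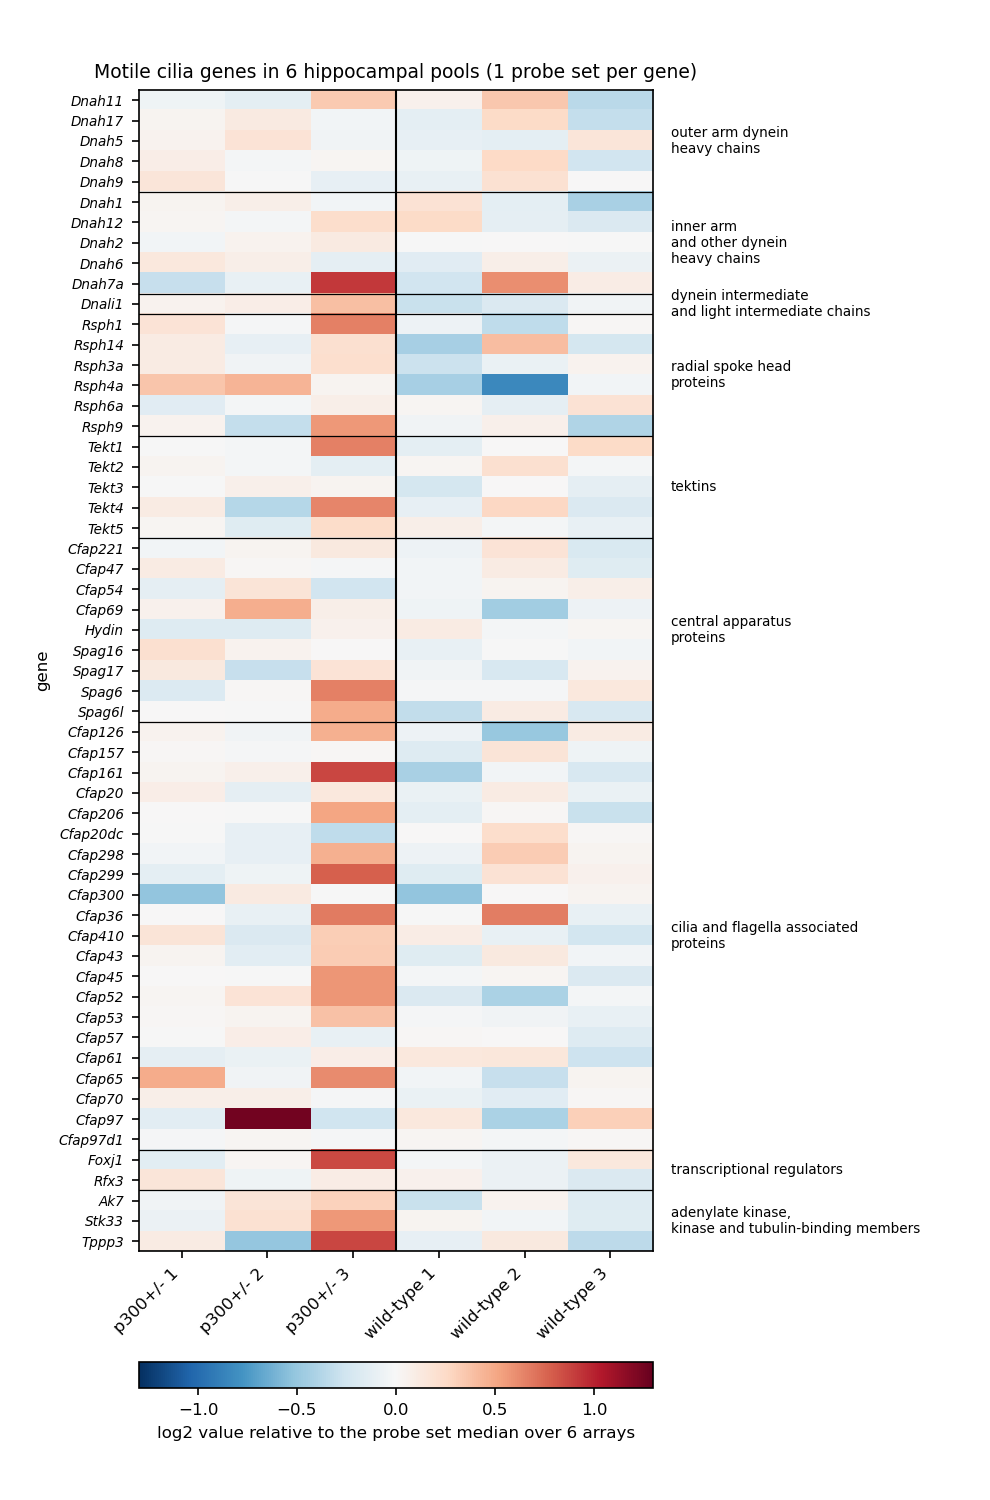
Log2 value of each of the 57 motile cilia genes relative to its median over 6 arrays, by its first probe set, with genes grouped by role from top to bottom and arrays from left to right (p300+/- left of the line, wild-type right). Red is high and blue is low; the column of p300+/- 3 holds the highest value of 29 genes, and that of wild-type 2 holds the lowest of 10.

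Foxj1 gave the clearest example among the regulators. Its values were −0.14, 0.026 and 0.86 in p300+/- 1 to 3, against −0.026, −0.074 and 0.13 in wild-type 1 to 3. A single p300+/- array stood 0.73 above all others, and the genotypes otherwise overlapped. The log2 fold change of Foxj1 was 0.24 ± 0.25 (SE), and −0.068 without p300+/- 3. Rfx3 had 2 probe sets of opposite sign. Its first (1425413_at) had 0.16, −0.060 and 0.10 in p300+/- arrays, against 0.060, −0.077 and −0.19 in wild-type arrays, with a log2 fold change of 0.13 ± 0.12 (SE). Its second (1437375_at) had −0.33, 0.067 and −0.0021 in p300+/- arrays, against −0.24, 0.29 and 0.0021 in wild-type arrays, with a log2 fold change of −0.11 ± 0.17 (SE). The genotypes overlapped at both probe sets, and neither followed the pattern of Foxj1.

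The outer arm dynein heavy chains, the motors that set beat frequency, had no probe set that was more than 0.3 above every other array in p300+/- 3. Of their 7 probe sets, 4 were higher and 3 lower in p300+/- arrays, the median log2 fold change was 0.032, and 5 had their highest value in wild-type 2, which was the highest array for 27.1% of all probe sets. Dnah11 had −0.054, −0.13 and 0.34 in p300+/- arrays, against 0.054, 0.36 and −0.35 in wild-type arrays. Dnah17, a heavy chain best known from sperm flagella, had 0.035, 0.12 and −0.035 in p300+/- arrays, against −0.12, 0.25 and −0.31 in wild-type arrays. For both, wild-type 2 was the highest array and wild-type 3 the lowest. Dnah8 (1424936_a_at), also a sperm outer arm chain, had 0.087, −0.028 and 0.028 in p300+/- arrays, against −0.055, 0.26 and −0.25 in wild-type arrays. Its other probe set (1425692_a_at) stayed between −0.061 and 0.066 in p300+/- arrays, against −0.036 and 0.15 in wild-type arrays. The remaining chains, Dnah5 and both probe sets of Dnah9, had log2 fold changes of 0.083, −0.025 and −0.014.

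Among the 7 probe sets of inner arm and other dynein heavy chains, which shape the waveform, 6 were higher and 1 lower in p300+/- arrays, with a median log2 fold change of 0.083. Dnah7a had the widest range. Its values were −0.30, −0.095 and 0.92 in p300+/- 1 to 3, against −0.25, 0.60 and 0.095 in wild-type 1 to 3. p300+/- 3 and wild-type 2 were both high, so that the genotype means nearly met, at 0.17 ± 0.65 in p300+/- and 0.15 ± 0.43 in wild-type arrays (SD, n = 3 each). The log2 fold change of Dnah7a was 0.024 ± 0.35 (SE), and −0.35 without p300+/- 3. Dnah1 (1425307_at) had 0.039, 0.076 and −0.039 in p300+/- arrays, against 0.19, −0.13 and −0.43 in wild-type arrays. Its second probe set (1434594_at) had −0.034, 0.23 and 0.034 in p300+/- arrays, against 0.098, −0.045 and −0.12 in wild-type arrays. Dnah12 had 0.026, −0.026 and 0.23 in p300+/- arrays, against 0.24, −0.12 and −0.19 in wild-type arrays. At all 3 probe sets of Dnah1 and Dnah12 wild-type 3 was the lowest array and the genotypes overlapped.

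Dnali1, a light intermediate chain of inner dynein arms, was higher in every p300+/- array than in every wild-type array at both of its probe sets. The first (1436126_at) had 0.041, 0.082 and 0.39 in p300+/- arrays, against −0.29, −0.19 and −0.041 in wild-type arrays. The second (1455379_at) had 0.033, 0.37 and 0.82 in p300+/- arrays, against −0.27, −0.033 and −0.18 in wild-type arrays. Both put p300+/- 3 highest and wild-type 1 lowest. The log2 fold changes were 0.34 ± 0.14 and 0.57 ± 0.20 (SE), with unadjusted limma p of 0.0417 and 0.0246 and an adjusted p of 0.9999 for each. Without p300+/- 3 they were 0.23 and 0.36, so the direction remained with a smaller size.

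The radial spoke head proteins had 6 of 7 probe sets higher in p300+/- arrays, with a median log2 fold change of 0.20. Rsph4a, a head component needed for normal spokes, had the smallest p of all members. Its values were 0.36, 0.44 and 0.032 in p300+/- 1 to 3, against −0.43, −0.84 and −0.032 in wild-type 1 to 3. The genotypes did not overlap, and unlike most members Rsph4a was highest in p300+/- 2 and lowest in wild-type 2. Its log2 fold change was 0.71 ± 0.22 (SE; limma unadjusted p = 0.0126, adjusted p = 0.9999), and 0.51 without wild-type 2. Rsph1, another spoke head protein, had 0.18, −0.020 and 0.66 in p300+/- arrays, against −0.069, −0.33 and 0.020 in wild-type arrays. Its log2 fold change was 0.40 ± 0.19 (SE), and 0.21 without p300+/- 3. Rsph9 had 0.044, −0.31 and 0.56 in p300+/- arrays, against −0.044, 0.064 and −0.39 in wild-type arrays. For Rsph9 the genotypes overlapped, with a log2 fold change of 0.22 ± 0.23 (SE) that came to −0.0099 without p300+/- 3. Rsph14, Rsph3a (2 probe sets) and Rsph6a had log2 fold changes of 0.16, 0.20, 0.072 and −0.071.

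The 5 tektins, filament proteins that stiffen the doublets, split between genes high in p300+/- 3 and genes with little spread. Tekt1 had −0.0023, −0.024 and 0.65 in p300+/- arrays, against −0.13, 0.0023 and 0.24 in wild-type arrays. Tekt4 had 0.10, −0.37 and 0.63 in p300+/- arrays, against −0.10, 0.27 and −0.19 in wild-type arrays. Both were highest in p300+/- 3 by more than 0.3, and without that array their log2 fold changes of 0.17 ± 0.21 and 0.13 ± 0.26 (SE) became −0.053 and −0.12. Tekt5 had 0.029, −0.15 and 0.23 in p300+/- arrays, against 0.080, −0.029 and −0.095 in wild-type arrays. Tekt2 and Tekt3 had log2 fold changes of −0.11 and 0.14, and p300+/- 3 was not their highest array.

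Of 17 probe sets of central apparatus proteins, 12 were higher and 5 lower in p300+/- arrays, with a median log2 fold change of 0.069. Spag6 and its close copy Spag6l, which encode armadillo-repeat proteins of the central apparatus, were both high in p300+/- 3. Spag6 had −0.17, 0.012 and 0.65 in p300+/- arrays, against −0.012, −0.019 and 0.14 in wild-type arrays. Its probe set (1460027_at) was in the dimmest class of log intensity, from 2 to 4, described further on. Spag6l had 0.0086, −0.0086 and 0.48 in p300+/- arrays, against −0.32, 0.11 and −0.21 in wild-type arrays. The genotypes overlapped for both, and probes of such near-identical genes may not tell them apart. The log2 fold change was 0.13 ± 0.21 for Spag6 and 0.30 ± 0.18 for Spag6l (SE). Without p300+/- 3 it was −0.12 for Spag6 and 0.14 for Spag6l. Hydin, whose product forms a central pair projection and whose loss causes hydrocephalus in mice, gave opposite signs at its 2 probe sets. The first (1431589_at) had −0.17, −0.17 and 0.056 in p300+/- arrays, against 0.11, −0.026 and 0.026 in wild-type arrays. The second (1460106_at) had 0.20, −0.030 and 0.030 in p300+/- arrays, against −0.11, 0.26 and −0.30 in wild-type arrays. The genotypes overlapped at both, with log2 fold changes of −0.13 ± 0.12 and 0.11 ± 0.17 (SE).

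Cfap69 illustrates how probe sets of a gene could differ. One (1440796_at) had 0.060, 0.47 and 0.071 in p300+/- arrays, against −0.060, −0.45 and −0.066 in wild-type arrays, with no overlap and a log2 fold change of 0.39 ± 0.17 (SE). The others, 1455859_at and 1457697_at, had log2 fold changes of 0.11 ± 0.13 and 0.032 ± 0.14 (SE), and the genotypes overlapped. Of the 22 member genes with more than 1 probe set, 13 had both signs among them. The remaining 35 genes had a single probe set.

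The other Cfap genes formed the largest group, with 37 probe sets, of which 28 were higher and 9 lower in p300+/- arrays at a median log2 fold change of 0.057. p300+/- 3 held the highest value for 19 of the 37 (51.4%), against 21.3% of all probe sets. Cfap161, a protein of the microtubule lumen, had 0.036, 0.068 and 0.87 in p300+/- arrays, against −0.42, −0.036 and −0.21 in wild-type arrays. The genotypes did not overlap, and p300+/- 3 was 0.80 above the next array. Its log2 fold change was 0.54 ± 0.24 (SE; limma unadjusted p = 0.0536), and 0.27 without p300+/- 3. Cfap52, likewise a protein of the doublet lumen, had 0.024, 0.18 and 0.58 in p300+/- arrays, against −0.19, −0.41 and −0.024 in wild-type arrays, at 1429552_at. Its other probe set (1432217_a_at) had 0.11, 0.17 and 0.75 in p300+/- arrays, against −0.19, −0.15 and −0.11 in wild-type arrays. Both separated the genotypes, with log2 fold changes of 0.47 ± 0.18 and 0.49 ± 0.18 (SE), unadjusted limma p of 0.0315 and 0.0288, and values of 0.31 and 0.29 without p300+/- 3.

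Cfap97 was among the Cfap genes that were not highest in p300+/- 3. At 1420989_at it had −0.13, 1.25 and −0.26 in p300+/- arrays, against 0.13, −0.41 and 0.31 in wild-type arrays. At 1450076_at it had 0.48, 1.03 and −0.54 in p300+/- arrays, against −0.29, −1.09 and 0.29 in wild-type arrays. Here p300+/- 2 was highest, and p300+/- 3 and wild-type 2 were both low. The third probe set (1429155_at) stayed between −0.12 and 0.15 in p300+/- arrays, against −0.061 and 0.27 in wild-type arrays. The log2 fold changes were 0.27 ± 0.40, 0.69 ± 0.46 and −0.084 ± 0.14 (SE). Single arrays set the first 2 of these: 1420989_at was at −0.21 without p300+/- 2 and 0.064 without wild-type 2, and 1450076_at at 1.12 without p300+/- 3 and 0.33 without wild-type 2. The third ran from −0.16 without p300+/- 2 to 0.0098 without wild-type 2.

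Some further members were named after their values were seen, because they were also high in p300+/- 3. There Cfap299 reached 0.77, Cfap45 0.58, Cfap206 0.51, Cfap126 0.46 and Cfap53 0.38, each more than 0.3 above every other array. Cfap36 had 0.68 in p300+/- 3, against 0.67 in wild-type 2, and lay between −0.094 and 0.0088 in the remaining arrays. Cfap20dc (1430789_at) was the member whose p300+/- arrays all lay below the wild-type arrays, at −0.0033, −0.10 and −0.33 in p300+/-, against 0.0033, 0.23 and 0.011 in wild-type arrays. Its margin between genotypes was small and its log2 fold change was −0.23 ± 0.13 (SE). At its other probe sets, 1431854_a_at and 1438228_at, the genotypes overlapped, with log2 fold changes of 0.011 and −0.068.

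Ak7, an adenylate kinase of cilia, Stk33, a kinase known from sperm tails, and Tppp3, a tubulin-binding protein, were highest in p300+/- 3. Tppp3 had 0.11, −0.50 and 0.87 in p300+/- arrays, against −0.11, 0.13 and −0.34 in wild-type arrays. Stk33 had −0.080, 0.20 and 0.56 in p300+/- arrays, against 0.039, −0.039 and −0.16 in wild-type arrays. Ak7 had −0.044, 0.17 and 0.30 in p300+/- arrays, against −0.29, 0.044 and −0.17 in wild-type arrays. The genotypes overlapped for all 3 genes, and the log2 fold changes of Tppp3, Stk33 and Ak7 were 0.27 ± 0.32, 0.28 ± 0.17 and 0.28 ± 0.14 (SE). Without p300+/- 3 they were −0.091, 0.11 and 0.20.

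**Figure D2:**
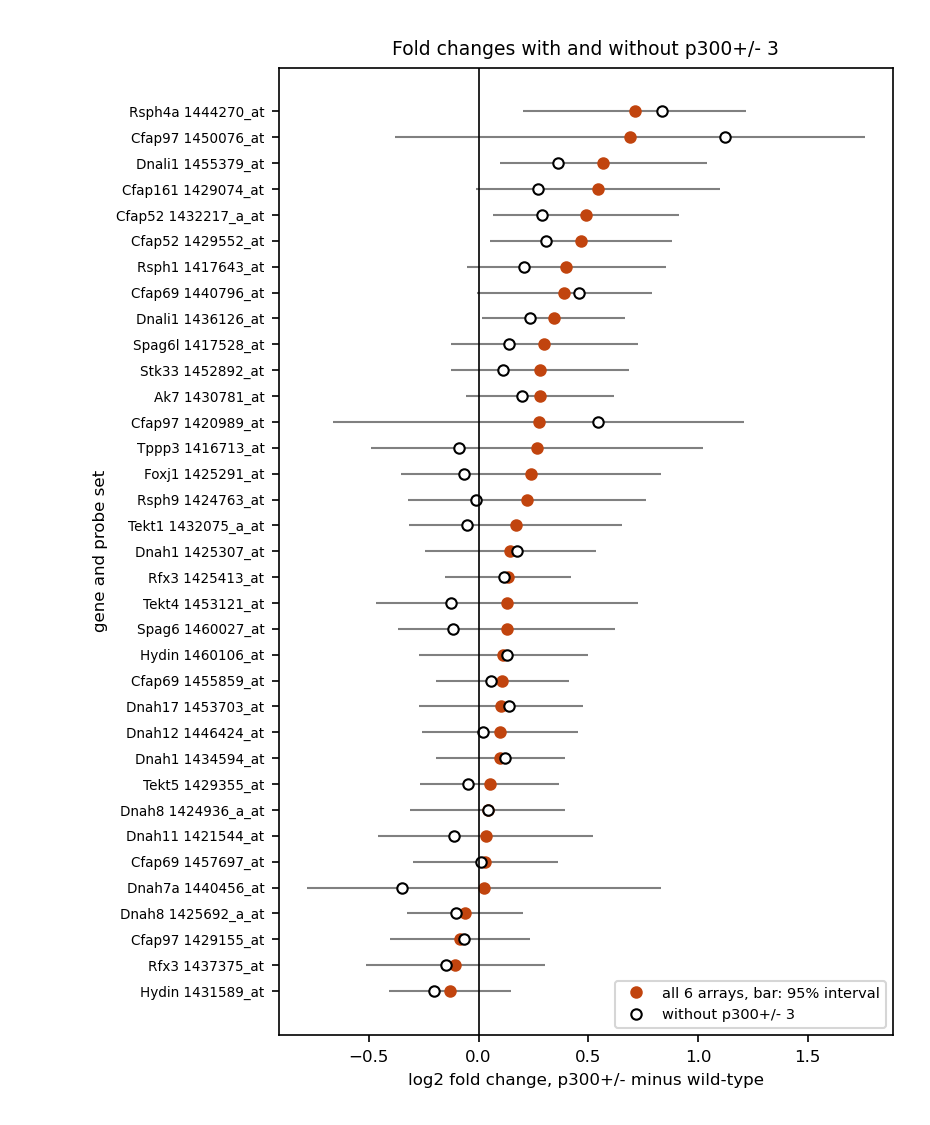
Log2 fold change (p300+/- minus wild-type) of the probe sets whose values are given by array, with filled points and 95% intervals from the fit of all 6 arrays and open points from the fit without p300+/- 3. Foxj1, Tppp3, Tekt1, Tekt4, Spag6 and Rsph9 lie right of 0 with that array and left of 0 without it, whereas Dnali1, Cfap52, Cfap161 and Rsph4a stay right of 0.

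Genes of the motile cilium outside the member families were also high in p300+/- 3. Of 83 listed, 68 were measured, each read by its first probe set, and 57 were higher and 11 lower in p300+/- arrays, with 0 past the adjusted threshold and a median log2 fold change of 0.15 (0.065 without p300+/- 3). Their medians were −0.012, 0.0050 and 0.29 in p300+/- 1 to 3, against −0.060, 0.032 and −0.063 in wild-type 1 to 3. For 40 of 68 (58.8%) p300+/- 3 was the highest array, against 21.3% of all probe sets. Mlf1 had −0.13, 0.33 and 1.10 in p300+/- arrays, against −0.22, −0.12 and 0.12 in wild-type arrays. Dynlrb2, a dynein light chain, had 0.11, 0.095 and 0.67 in p300+/- arrays, against −0.26, −0.89 and −0.095 in wild-type arrays. Both genes are also in the ependymal marker list. Wdr63, a dynein intermediate chain, had −0.20, 0.071 and 0.57 in p300+/- arrays, against 0.022, −0.83 and −0.022 in wild-type arrays. Tcte1, a dynein regulatory complex protein, had −0.33, 0.14 and 0.56 in p300+/- arrays, against −0.87, −0.14 and 0.59 in wild-type arrays, so that wild-type 3 was its highest.

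Upstream regulators of multiciliated cells were split in direction, with medians of 0.052 in p300+/- 3 and 0.16 in wild-type 2. Of 16 listed, 14 were measured, 6 higher and 8 lower in p300+/- arrays, with 0 past the adjusted threshold and a median log2 fold change of −0.016. E2f5, a transcription factor that acts with multicilin, had −0.27, 0.014 and 0.57 in p300+/- arrays, against −0.11, 0.39 and −0.014 in wild-type arrays. Cdc20b, Plk4 and Sass6, which serve centriole amplification, had log2 fold changes of −0.042, −0.090 and −0.31. Of 63 genes of intraflagellar transport and the primary cilium, which non-motile cilia also need, 57 were measured, 34 higher and 23 lower, with 0 past the adjusted threshold and a median of 0.014. Their median was 0.096 in p300+/- 3, against 0.0089 in wild-type 2. Bbs5, a subunit of the BBSome, had 0.96 in p300+/- 3, against 0.89 in wild-type 2, and lay between −0.17 and 0.035 elsewhere. Wdr35, Ttc30a1 and Kifap3, all parts of the transport machinery, had log2 fold changes of 0.41 ± 0.53, −0.21 ± 0.37 and −0.082 ± 0.27 (SE). The X-box core was in the promoter windows of 20 of 51 (39.2%) intraflagellar transport and primary cilium genes. For the other motile cilium genes it was in 26 of 56 (46.4%). In these 2 lists, p300+/- 3 lay more than 0.3 above every other array for 2 of 57 (3.51%) and 19 of 68 (27.9%) genes. Over all probe sets the share was 2.36%.

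**Figure D3:**
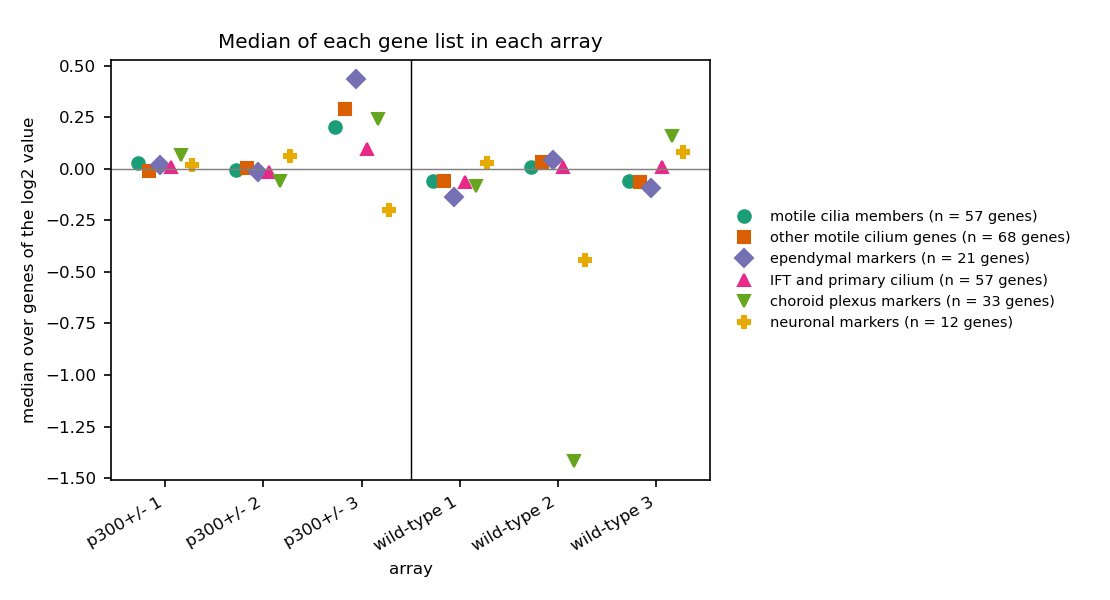
Median log2 value of each gene list in each array (1 probe set per gene), with p300+/- arrays left and wild-type arrays right of the line. Ependymal markers and both motile cilium lists are highest in p300+/- 3 (0.43, 0.29 and 0.20) and near 0 in wild-type 2. Choroid plexus markers (0.24) and intraflagellar transport and primary cilium genes (0.096) are also highest in p300+/- 3. In wild-type 2, choroid plexus markers are at −1.42 and neuronal markers at −0.44.

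Markers of ependymal cells were high in p300+/- 3 beside the members. Of 22 listed, 21 were measured, 20 higher and 1 lower in p300+/- arrays, with 0 past the adjusted threshold and a median log2 fold change of 0.32 (0.082 without p300+/- 3, 0.26 without wild-type 2). p300+/- 3 was the highest array for 19 of 21 (90.5%), against 21.3% of all probe sets. The list's medians were 0.019, −0.017 and 0.43 in p300+/- 1 to 3, against −0.14, 0.044 and −0.093 in wild-type 1 to 3. Tmem212 and Ccdc153, ependymal markers named after their values were seen, had 0.83 and 0.89 in p300+/- 3, against 0.0018 and 0.24 in wild-type 2. Calml4 and Mt3 had the widest ranges of the list. Calml4 had 0.19, −0.19 and 0.43 in p300+/- arrays, against −0.29, −2.31 and 0.20 in wild-type arrays. Mt3, a metallothionein also made by astrocytes and neurons, had −0.025, −0.38 and 0.68 in p300+/- arrays, against 0.025, −1.27 and 0.55 in wild-type arrays. Both had their lowest value in wild-type 2, as did 6 of the 21 markers (28.6%) in all, against 18.4% of all probe sets. Wild-type 2 was more than 0.3 below every other array for 4 of the 21 (19%), against 4.38% of all probe sets. The part of a different number of ependymal cells in the members' values was not tested.

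Choroid plexus markers separated from the motile cilia genes in wild-type 2. Of 36 listed, 33 were measured, and wild-type 2 was the lowest array for 28 (84.8%), against 18.4% of all probe sets. Their medians were 0.065, −0.057 and 0.24 in p300+/- 1 to 3, against −0.085, −1.42 and 0.16 in wild-type 1 to 3. As with the members, p300+/- 3 was often the highest array, for 19 of 33 genes (57.6%), against 21.3% of all probe sets. That array lay more than 0.3 above every other for 6 (18.2%), against 2.36% of all probe sets. Kcnj13, a potassium channel of this epithelium, had 0.085, −0.085 and 0.38 in p300+/- arrays, against −0.34, −3.60 and 0.33 in wild-type arrays. Kcne2, a potassium channel subunit, had 0.025, −0.025 and 0.90 in p300+/- arrays, against −0.42, −3.21 and 0.33 in wild-type arrays. Folr1, a folate receptor, and F5, coagulation factor V, were at 0.84 and 0.57 in p300+/- 3, against −2.64 and −2.69 in wild-type 2. The list had 31 of 33 genes higher in p300+/- arrays, 0 past the adjusted threshold, and a median log2 fold change of 0.55, which was 0.093 without wild-type 2. The members' own median moved the other way when wild-type 2 was left out, to 0.14.

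**Figure D4:**
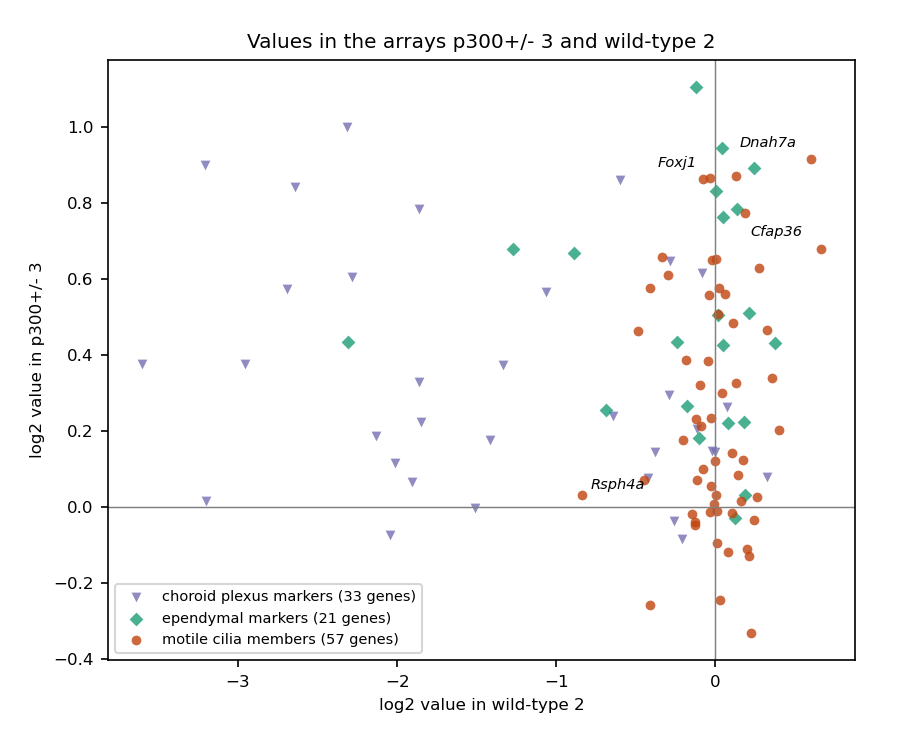
Log2 value in p300+/- 3 (vertical axis) against that in wild-type 2 (horizontal axis) for each gene by its first probe set, with circles for 57 motile cilia genes, diamonds for 21 ependymal markers and triangles for 33 choroid plexus markers. Foxj1, Cfap161 and Tppp3 lie at 0.86 to 0.87 on the vertical axis and close to 0 on the horizontal, Dnah7a lies high on both (0.92 and 0.60), and choroid plexus markers stretch to the left, down to −3.60.

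Markers of other cells gave these values beside the members'. Neuronal markers (12 measured) had medians of 0.016, 0.060 and −0.20 in p300+/- 1 to 3, against 0.028, −0.44 and 0.079 in wild-type 1 to 3. Their median was thus lowest in the 2 arrays that stood apart. Wild-type 2 was the lowest array for 9 of the 12 genes, against 18.4% of all probe sets. In contrast, p300+/- 3 was the lowest for 1 and the highest for 2, against 17.2% and 21.3%. Of the 4 genes with the widest range, Syt1, a synaptic vesicle protein, was at −1.25 in p300+/- 3, against −1.91 in wild-type 2. Map2, Slc17a7 and Rbfox3 were at −0.65, −0.49 and −0.093 in p300+/- 3, against −0.98, −1.37 and −0.64 in wild-type 2. Of 13 astrocyte markers 6 were higher and 7 lower in p300+/- arrays, at a median log2 fold change of −0.013. Gfap, the astrocyte filament protein, had 0.0044, −0.51 and 0.45 in p300+/- arrays, against −0.0044, −0.81 and 0.48 in wild-type arrays. Vascular and meningeal markers (24 measured) were higher for 16 and lower for 8, at a median of 0.11, and neither list had a gene past the adjusted threshold. For 9 of these 24 (37.5%) p300+/- 3 was the highest array, against 21.3% of all probe sets. It was past the gap of 0.3 for 1 (4.17%), against 2.36%. All p300+/- arrays lay above all wild-type arrays for 4 (16.7%), against 3.19% of all probe sets. The part of neuronal content or RNA quality in the members' values was not tested.

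The members were also counted by the brightness of their probe sets. Grids left by the number format placed 62 members in the class of log intensity from 4 to 8, 12 in that from 8 to 16 and 14 in that from 2 to 4. In the class from 4 to 8, 51 of 62 (82.3%) were higher in p300+/- arrays, against 52.0% of all probe sets of that class, and it held all 5 members with an unadjusted p under 0.05. There 17 (27.4%) lay more than 0.3 above every other array in p300+/- 3, against 2.65% of the class. In the class from 8 to 16, 8 of 12 (66.7%) were higher, against 51.0% of that class, with a median log2 fold change of 0.026. p300+/- 3 was nonetheless the highest array for 7 of these 12 (58.3%), against 20.2% of the class, 2 (16.7%) were past the gap of 0.3, against 1.80%, and their median in that array was 0.19. In the class from 2 to 4, 8 of 14 (57.1%) were higher, against 52.3% of that class. In this dimmest class 1 member (7.14%), Spag6, was past the gap, against 2.28%. There p300+/- 3 was the highest array for 4 of 14 (28.6%), near the 27.2% of that class.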

How the data were processed

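The 6 hippocampal RNA pools, 3 p300+/- and 3 wild-type, each from 4 animals, were hybridized to Affymetrix arrays (Mouse Genome 430 2.0). Extraction used Trizol and RNeasy columns, and processing and normalization used GeneSpring GX, per the labels' protocols. Its version, the summarization, filters and normalization between arrays are not stated there. The labels call the pools independent biological replicates, and their number limits the precision. The deposited log2 values by the authors hold 1 value per probe set and array, and the median of each of the 45037 tested probe sets was 0 within 1e-06. No source states the logarithm's base, which was taken as 2 and not tested. Binary grids of single-precision numbers from 2 to 16 held 98.2% of probe sets. They gave the coarse level classes but do not show the base.

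Of 45101 probe sets, 64 controls were left out. The platform annotation gave 34945 a single symbol, 932 several and 9160 none; 34741 matched the RefSeq table of GRCm38.p6. Symbols as deposited and as updated gave the same 88 members. The fit used limma 3.58.1 in R 4.3.3 (lmFit, eBayes), two-sided, p300+/- minus wild-type over all arrays without covariates, with a threshold of 0.05. The fit was tested on simulated data.

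The members, gene lists and tests were chosen with earlier results of these data known. Values by array are given for Foxj1, Rfx3, Ak7, Stk33, Tppp3, Hydin and Dnali1, for the 3 genes of each other role with the widest range, for the 5 members with the smallest p, and for at most 4 genes of each other list with the widest range; others are stated as named after their values were seen. No scan or hybridization batch was used here. Alternatives were quantile and median normalization, omission of each array, of cross-binding or dim probe sets, array weights, trended and robust moderation, a replicate block, a threshold of 0.1 and gene means. Figures were drawn with matplotlib 3.10.9.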

Additional observations from a re-analysis of the deposited data

How the results depend on the processing

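With 0 probe sets past an adjusted p of 0.05 in every fit run, and 0 past 0.1 in the fit of the report, the number called did not vary. In limma with trend and robust moderation the smallest adjusted p over all probe sets was 0.067, under 0.1. In the fit of the report 550 probe sets had an unadjusted p under 0.05. The number was 682 with trend and robust moderation and 1632 with array weights. The members' median log2 fold change of 0.098 stayed above 0 in all settings run. Leaving out each array in turn gave 0.043 (without p300+/- 3) to 0.14 (without wild-type 2), and the class from 8 to 16 alone gave 0.026. The number of members whose genotypes did not overlap was 10 of 88, against 5.39% of all probe sets. It was 15 to 26 with each array left out, against 12.1% to 18.1%, 33 of 88 without both p300+/- 3 and wild-type 2, against 28.3%, and 5 of 57 gene means, against 4.72%. Leaving out both arrays and restricting the class were chosen after seeing the data. The median in wild-type 2 was −0.0081 after quantile normalization and −0.013 after median centring, against 0.0095; leaving out other arrays cannot change it. With the replicate number as a block the median stayed 0.098 and 8 members had an unadjusted p under 0.05, against 604 of all 45037 probe sets. Same-numbered arrays deviated from their group means with correlations of 0.61, −0.23 and −0.47. The sign was not the same for all replicate numbers, and whether arrays of a number were handled together was not tested. Values are centred, so signal over background cannot be read, and the tested contrast rests on 3 pools a genotype.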
